A study of Mus musculus with 16 samples.

Results

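NRF2, the product of Nfe2l2, is a transcription factor that switches on enzymes against oxidants and electrophiles. It is held in the cytosol by KEAP1, which hands it to a ubiquitin ligase for destruction. Oxidants and electrophiles modify cysteines of KEAP1, and NRF2 then escapes, pairs with a small MAF protein and binds antioxidant response elements in front of its target genes. Much of this response is set by the amount of NRF2 protein, which an mRNA measurement does not show. Here 10 genes were followed: Nfe2l2 itself and 9 genes known from textbooks as its targets, which are Gclc, Gclm, Gsr, Txnrd1, Srxn1, G6pdx, Nqo1, Hmox1 and Osgin1. They were chosen by name and are 10 of the 29241 genes that could be tested. Of the 60273 probes on the array, 13 belong to them, 2 of which carry the gene symbol in the files and 11 of which were named through their RefSeq transcript. All 10 had a probe well above background on every array.

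The RNA came from mouse embryonic stem cells of the line CGR8-Myh6-GFP, which carries a reporter of the cardiac myosin gene Myh6 and was allowed to differentiate towards heart muscle without feeder cells, in a medium that contained the reducing agent 2-mercaptoethanol in every group. From day 4, cultures received the vehicle DMSO, WS1442 at 0.25 mg/ml, which is a special extract that is made with ethanol from the leaves and flowers of hawthorn, or MeOH eluate at 0.1 mg/ml, a subfraction of WS1442 that is rich in oligomeric procyanidins. Both preparations are mixtures of many compounds, polyphenols among them, and since their doses differ, a difference between them may be one of dose as well as of composition. RNA was taken 6 h or 24 h into treatment, from 2 DMSO, 3 WS1442 and 3 MeOH eluate cultures per time point, and each of the 16 RNA samples was hybridised to its own 1-colour array. All 6 h arrays lay on 1 slide and all 24 h arrays on another, so levels were compared only within a time point. The methods speak in general of at least 3 independent replicates, more than the 2 DMSO cultures here, and the labels do not say which cultures shared a plate or a differentiation, so the p-values measure the spread between these samples, which may be technical. At each time both treatments were set against the same 2 DMSO arrays, and their results are therefore not independent of each other.

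Signals are given as log2 of the quantile-normalized array brightness, in arbitrary units, and a gene was called changed when its p-value from limma, adjusted by the Benjamini-Hochberg method over all genes, was under 0.05. Between 55.1% and 63.0% of the gene spots on an array were well above background, and RNA integrity numbers lay between 8.6 and 10. The cells carried signal of the pluripotency markers (5 of 5 tested) and of 6 of 7 cardiac markers, while Myh6 was not well above background on all arrays of any group. Signal on an array is per amount of RNA, so fewer cells of a type and less RNA of a gene per cell cannot be told apart. Another scaling of the arrays, to their 75th percentile, changed the share of higher calls among all called genes. With WS1442 at 6 h it rose from 74.0% to 81.7%, and with MeOH eluate at 6 h it went from 50.8% to 43.7%. At 24 h that share went from 52.1% to 41.5% with WS1442 and with MeOH eluate from 52.9% to 42.6%. It rose from 50.8% to 51.8% for eluate against WS1442 at 24 h, and went from 39.5% to 25.2% for eluate against WS1442 at 6 h and from 45.3% to 31.8% for the difference of the WS1442 effect between the time points.

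To show the DNA in front of genes that moved in different ways, the 250 bases before the start site are printed for 4 genes, 5′ to 3′ on the strand of the gene, from the RefSeq promoter table of build GRCm38.p6. Srxn1 (chr2:152105274-152105523, plus strand) was higher with both treatments at both times, G6pdx (chrX:74428881-74429130, minus strand) was higher at 6 h, Nfe2l2 (chr2:75704664-75704913, minus strand) encodes NRF2 itself, and Osgin1 (chr8:119436897-119437146, plus strand) was lower at 24 h. Capitals mark the core of the antioxidant response element, TGACNNNGC, or the AP-1 site TGANTCA, read on both strands.
Srxn1: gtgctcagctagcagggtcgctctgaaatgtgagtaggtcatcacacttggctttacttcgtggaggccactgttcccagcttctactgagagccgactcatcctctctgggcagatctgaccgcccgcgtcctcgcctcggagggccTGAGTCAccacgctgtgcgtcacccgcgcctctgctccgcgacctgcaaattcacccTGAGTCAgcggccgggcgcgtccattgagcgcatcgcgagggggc
G6pdx: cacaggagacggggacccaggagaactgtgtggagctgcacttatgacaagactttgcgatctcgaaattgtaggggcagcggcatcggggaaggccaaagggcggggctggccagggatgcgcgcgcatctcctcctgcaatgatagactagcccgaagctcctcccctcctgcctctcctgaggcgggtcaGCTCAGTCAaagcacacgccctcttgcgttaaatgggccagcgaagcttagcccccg
Nfe2l2: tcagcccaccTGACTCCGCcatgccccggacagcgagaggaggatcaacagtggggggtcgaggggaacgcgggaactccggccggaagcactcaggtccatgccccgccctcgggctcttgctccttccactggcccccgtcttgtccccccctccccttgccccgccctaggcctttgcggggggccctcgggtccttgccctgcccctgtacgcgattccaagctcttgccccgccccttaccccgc
Osgin1: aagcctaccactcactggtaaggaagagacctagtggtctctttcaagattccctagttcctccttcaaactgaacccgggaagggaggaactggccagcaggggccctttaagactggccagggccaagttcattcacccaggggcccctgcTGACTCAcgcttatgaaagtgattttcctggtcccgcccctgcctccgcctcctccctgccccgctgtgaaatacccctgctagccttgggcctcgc
A match to TGACNNNGC in the 300-base window that also takes in 50 bases after the start was found in 5 of the 7 genes with a window, namely G6pdx, Gclm, Nfe2l2, Txnrd1 and Srxn1, and in 14.0% of all genes with a window. In G6pdx it began at position -57, in Gclm at -134, in Nfe2l2 at -240 and in 1 of 3 Txnrd1 windows at -92, counted from the start site, whereas in Srxn1 it began at 29 and lies outside the printed stretch. TGANTCA was found in 2 of the 7 genes, in Srxn1 at -102 and -45 and in Osgin1 at -97, and in 8.97% of all genes with a window. The window of Nqo1 held neither motif, and Hmox1, Gclc and Gsr had no window in the table. The 2 motifs did not overlap in any of these windows, and a match is a run of letters, not a measured binding site.

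After 6 h most of the 10 genes were higher with either treatment. WS1442 raised 7 of them, Nfe2l2, Gclc, Gclm, Gsr, Srxn1, G6pdx and Nqo1, and none fell, while 5.60% of all genes tested were called in this comparison. MeOH eluate raised 6, Nfe2l2, Gsr, Txnrd1, Srxn1, G6pdx and Hmox1, and none fell, with 17.1% of all genes called. The median log2 fold change of the 10 genes was 0.24 with each treatment, beside -0.01 and 0.00 over all genes. Most of these rises were small, between 0.23 and 0.37 on the log2 scale, and Srxn1 stood apart with a 1.75-fold rise with WS1442 and a 1.92-fold rise with MeOH eluate. After 24 h the picture had changed: WS1442 left 2 genes raised, Srxn1 and G6pdx, and lowered Osgin1, with 24.7% of all genes called, and MeOH eluate left Srxn1 and Gsr raised and lowered Gclc and Osgin1, with 18.2% called. The median of the 10 genes was then 0.08 and 0.06, beside 0.05 and 0.01 over all genes.

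**Figure D1:**
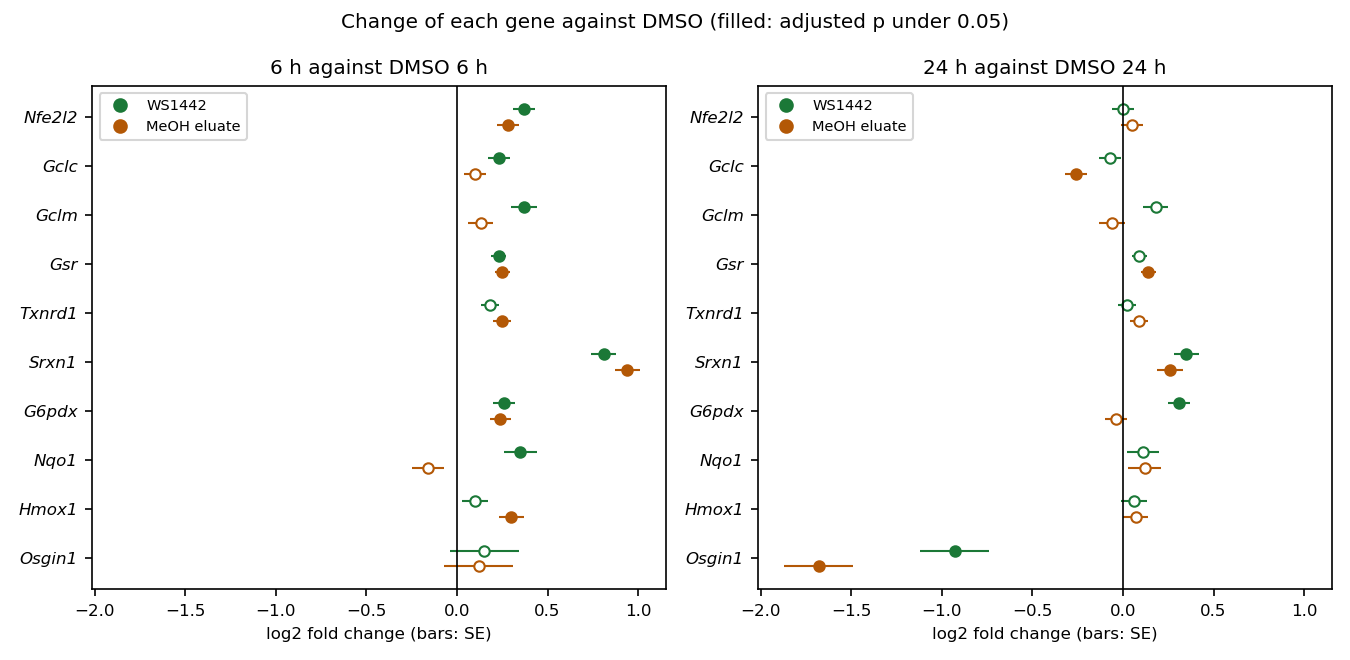
Log2 fold change of each of the 10 genes against DMSO of the same time point, with WS1442 in green and MeOH eluate in orange; bars are standard errors from limma and filled points have an adjusted p under 0.05. At 6 h the points lie to the right of 0 except for Nqo1 with MeOH eluate (-0.16), and at 24 h Osgin1 lies far to the left, at -0.93 and -1.68.

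The counts at 6 h leaned on single arrays, above all on the first DMSO culture, whose signal was below that of the second in 9 of the 10 genes (median difference -0.10 on the log2 scale). Without it, Srxn1 alone stayed called with WS1442 (adjusted p = 0.000599). The others had adjusted p between 0.051 (Nfe2l2) and 0.368 (Nqo1, Gclc) with log2 fold changes between 0.18 and 0.38. The calls over all genes then fell from 1637 to 238, or 0.814%. With MeOH eluate, leaving out that culture kept Srxn1 (3.52e-05), Gsr (0.0425) and Nfe2l2 (0.0489) and lost Txnrd1 (0.0599), Hmox1 (0.106) and G6pdx (0.14). Nqo1 and Gclc with WS1442 also lost their calls without DMSO replicate 2 (0.0562 and 0.0784), WS1442 replicate 2 (0.0632 and 0.0736) or WS1442 replicate 3 (0.117 and 0.129), the last of which also cost G6pdx its call (0.0555). Gclc was close to the threshold throughout, with adjusted p between 0.0503 and 0.0557 when MeOH eluate 6 h replicate 1, WS1442 24 h replicate 2 or MeOH eluate 24 h replicate 1 or 2 was left out. The DMSO cultures at 24 h differed too, the first being above the second in 8 of the 10 genes (median difference 0.1). Their arrays had 63.0% and 55.5% of gene spots well above background.

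**Figure D2:**
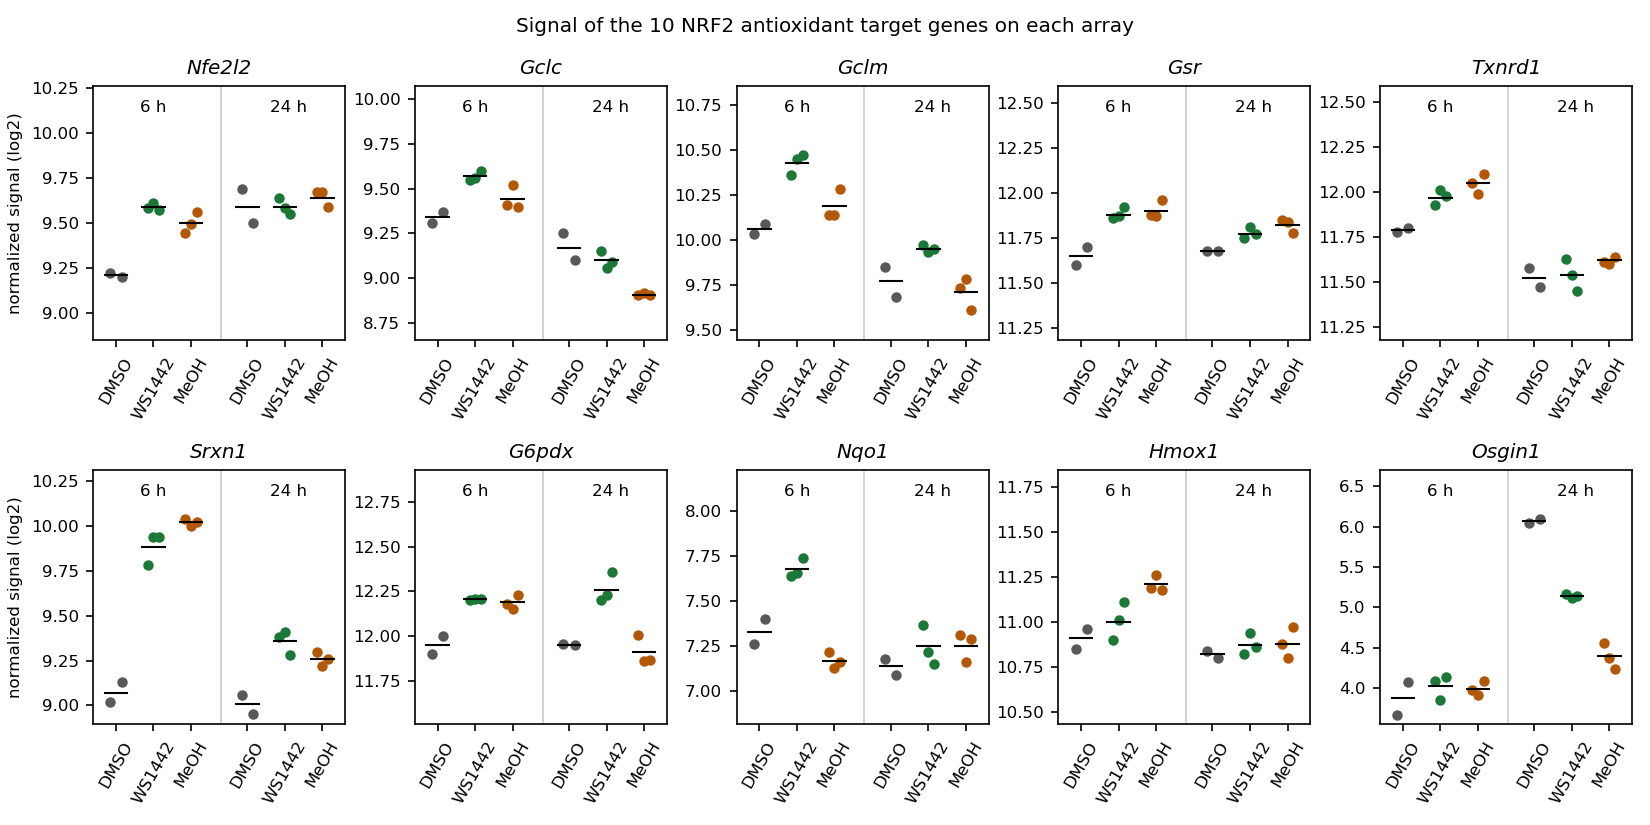
Normalized signal on the log2 scale for each gene on each of the 16 arrays, grouped by treatment and time, with DMSO in grey, WS1442 in green and MeOH eluate in orange; black lines are group means. Each panel has its own vertical range. For Srxn1 at 6 h the 6 treated arrays lie between 9.78 and 10.04, above the DMSO arrays at 9.02 and 9.13.

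Nfe2l2 read 9.22 and 9.20 on the DMSO arrays at 6 h, 9.58, 9.61 and 9.57 with WS1442 and 9.44, 9.49 and 9.56 with MeOH eluate, so that all treated arrays lay above both controls. It rose by 0.37 ± 0.06 (log2, SE) with WS1442 (adjusted p = 0.00454) and by 0.28 ± 0.06 with MeOH eluate (adjusted p = 0.0066). At 24 h the DMSO arrays read 9.69 and 9.50, the WS1442 arrays 9.64, 9.58 and 9.55 and the MeOH eluate arrays 9.67, 9.67 and 9.59, and the groups overlapped. A second Nfe2l2 probe, for the transcript ENSMUST00000152371, was well above background on 14 of 16 arrays and was called in no comparison. With MeOH eluate at 6 h this dim probe pointed the other way (-0.56 ± 0.27, adjusted p = 0.176). The mean of both probes, which weighs them equally, gave -0.14 (adjusted p = 0.568) there and 0.19 (adjusted p = 0.525) with WS1442 at 6 h. The rise of Nfe2l2 therefore rests on the brighter of its 2 probes.

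Glutamate-cysteine ligase makes the first and rate-limiting step of glutathione synthesis, with Gclc as its catalytic and Gclm as its modifier subunit. Gclm read 10.03 and 10.09 with DMSO at 6 h, 10.36, 10.45 and 10.47 with WS1442 and 10.14, 10.14 and 10.28 with MeOH eluate. All treated arrays were above the controls, and the rise was called with WS1442 (0.37 ± 0.07, adjusted p = 0.00763) and not with MeOH eluate (0.13 ± 0.07, adjusted p = 0.226). Gclc read 9.31 and 9.37 with DMSO at 6 h, 9.55, 9.56 and 9.60 with WS1442 and 9.41, 9.52 and 9.40 with MeOH eluate. It rose with WS1442 (0.23 ± 0.06, adjusted p = 0.0396), while its value with MeOH eluate was 0.10 ± 0.06 (adjusted p = 0.287). The call with WS1442 was lost with the mean of both probes (0.19, adjusted p = 0.384), another background correction (0.19, adjusted p = 0.0855), limma without a trend (adjusted p = 0.0611) and the fit within the time point (adjusted p = 0.102). At 24 h the ligase subunits no longer stood above the controls together. Gclc read 9.25 and 9.10 with DMSO, 9.15, 9.06 and 9.09 with WS1442 and 8.91, 8.92 and 8.91 with MeOH eluate, all 3 below both controls. It fell with MeOH eluate by 0.26 ± 0.06 (adjusted p = 0.0072), a call that was lost without DMSO 24 h replicate 1 (-0.18, adjusted p = 0.142) and with the mean of both probes (-0.23, adjusted p = 0.165). Gclm at 24 h read 9.85 and 9.68 with DMSO, 9.97, 9.93 and 9.95 with WS1442 and 9.73, 9.78 and 9.61 with MeOH eluate, and gave 0.18 ± 0.07 with WS1442 (adjusted p = 0.0642, and 0.0435 without DMSO 24 h replicate 1). A second Gclc probe, for the predicted transcript XM_006510813.1, was called in no comparison, with 0.15 ± 0.21 for WS1442 at 6 h and -0.20 ± 0.21 for MeOH eluate at 24 h.

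Gsr and Txnrd1 encode the reductases that regenerate glutathione and thioredoxin with NADPH. Gsr read 11.60 and 11.70 with DMSO at 6 h, 11.86, 11.87 and 11.92 with WS1442 and 11.88, 11.87 and 11.96 with MeOH eluate, and rose with both, by 0.23 ± 0.04 (adjusted p = 0.00979) and 0.25 ± 0.04 (adjusted p = 0.00167), the former not called with the fit within the time point (adjusted p = 0.0598). No treated array reached down to the controls. At 24 h Gsr read 11.68 and 11.68 with DMSO, 11.75, 11.81 and 11.77 with WS1442 and 11.85, 11.84 and 11.78 with MeOH eluate. Treated arrays were again all above the controls, but by less, with 0.09 ± 0.04 for WS1442 (adjusted p = 0.149) and a called 0.14 ± 0.04 for MeOH eluate (adjusted p = 0.0357). This last call was lost with either DMSO 24 h replicate or MeOH eluate 24 h replicate 1 or 2 left out (adjusted p between 0.0874 and 0.146) and with scaling to the 75th percentile (0.08, adjusted p = 0.426), limma without a trend (adjusted p = 0.0849) or the fit within the time point (adjusted p = 0.0536).

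Txnrd1 read 11.78 and 11.80 with DMSO at 6 h, 11.93, 12.01 and 11.98 with WS1442 and 12.05, 11.99 and 12.10 with MeOH eluate. All treated arrays were higher, and the rise passed the threshold with MeOH eluate (0.25 ± 0.05, adjusted p = 0.00549) but not with WS1442 (0.18 ± 0.05, adjusted p = 0.0744). With scaling to the 75th percentile the MeOH eluate value was 0.20 (adjusted p = 0.0662). At 24 h Txnrd1 read 11.58 and 11.47 with DMSO, 11.63, 11.54 and 11.45 with WS1442 and 11.61, 11.60 and 11.64 with MeOH eluate, with no call.

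Srxn1 encodes sulfiredoxin, which restores peroxiredoxins that have been overoxidised by peroxide. At 6 h it read 9.02 and 9.13 with DMSO, 9.78, 9.94 and 9.94 with WS1442 and 10.04, 10.00 and 10.02 with MeOH eluate. It rose by 0.81 ± 0.07 with WS1442 (adjusted p = 1.66e-05) and by 0.94 ± 0.07 with MeOH eluate (adjusted p = 5.3e-07), and both calls held with each of the 16 arrays left out in turn. At 24 h it read 9.06 and 8.95 with DMSO, 9.38, 9.41 and 9.28 with WS1442 and 9.30, 9.22 and 9.26 with MeOH eluate. All treated arrays were still higher, by 0.35 ± 0.07 with WS1442 (adjusted p = 0.00171) and 0.26 ± 0.07 with MeOH eluate (adjusted p = 0.0144). The latter call was lost without DMSO 24 h replicate 2 (0.20, adjusted p = 0.125) or MeOH eluate 24 h replicate 1 (0.24, adjusted p = 0.0509), and with another background correction (0.13, adjusted p = 0.217). Srxn1 was the only one of the 10 genes called in all 4 comparisons with DMSO.

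G6pdx encodes glucose-6-phosphate dehydrogenase, the entry of the pentose phosphate pathway and a main source of the NADPH that the reductases consume. It read 11.90 and 12.00 with DMSO at 6 h, 12.20, 12.21 and 12.21 with WS1442 and 12.18, 12.15 and 12.23 with MeOH eluate. The rises were 0.26 ± 0.06 (adjusted p = 0.0175) and 0.24 ± 0.06 (adjusted p = 0.00993), of which the former was not called with limma without a trend (adjusted p = 0.055) and the latter not with scaling to the 75th percentile (0.18, adjusted p = 0.0699). At 24 h it read 11.96 and 11.95 with DMSO and 12.20, 12.23 and 12.36 with WS1442, but 12.01, 11.86 and 11.87 with MeOH eluate. The WS1442 arrays thus stayed above the controls (0.31 ± 0.06, adjusted p = 0.0011), and the MeOH eluate arrays straddled them (-0.04 ± 0.06, adjusted p = 0.752). The WS1442 call at 24 h held with each of the 16 arrays left out in turn.

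Nqo1 encodes a quinone reductase and Hmox1 encodes heme oxygenase 1, which breaks down heme, and both are classical markers of NRF2 activity. At 6 h Nqo1 read 7.26 and 7.40 with DMSO, 7.64, 7.66 and 7.74 with WS1442 and 7.22, 7.13 and 7.16 with MeOH eluate. It rose with WS1442 (0.35 ± 0.09, adjusted p = 0.0337), whereas all MeOH eluate arrays lay below the controls without a call (-0.16 ± 0.09, adjusted p = 0.259). The rise with WS1442 was not called with scaling to the 75th percentile (0.33, adjusted p = 0.0532) or with the fit within the time point (0.35, adjusted p = 0.0812). For Hmox1 the order of the treatments was the opposite. It read 10.85 and 10.96 with DMSO, 10.90, 11.01 and 11.11 with WS1442 and 11.19, 11.26 and 11.18 with MeOH eluate, and rose with MeOH eluate (0.30 ± 0.07, adjusted p = 0.00668) while its value with WS1442 was 0.10 ± 0.07 (adjusted p = 0.484). With scaling to the 75th percentile the MeOH eluate value of Hmox1 was 0.25 (adjusted p = 0.0528). At 24 h neither gene was called. Nqo1 then read 7.18 and 7.09 with DMSO, 7.37, 7.22 and 7.15 with WS1442 and 7.31, 7.16 and 7.29 with MeOH eluate, and Hmox1 read 10.84 and 10.80, 10.82, 10.94 and 10.86, and 10.88, 10.80 and 10.97. A second Hmox1 probe, for the transcript ENSMUST00000160341, was well above background on none of the 16 arrays.

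Osgin1, named as an oxidative stress induced growth inhibitor, was the only one of the 10 genes to differ more than 2-fold from DMSO, and did so with MeOH eluate at 24 h. At 6 h it read 3.67 and 4.07 with DMSO, 4.08, 3.85 and 4.14 with WS1442 and 3.97, 3.91 and 4.09 with MeOH eluate, and the groups overlapped. These signals were well above background but low, as an Nfe2l2 probe at 3.51 on a 6 h array was not well above it. A fall of Osgin1 at 6 h would thus have been harder to see than at 24 h. At 24 h it read 6.04 and 6.10 with DMSO, 5.17, 5.12 and 5.14 with WS1442 and 4.56, 4.37 and 4.23 with MeOH eluate, with no overlap between any of the groups. It fell by 0.93 ± 0.19 with WS1442 (adjusted p = 0.00243) and by 1.68 ± 0.19 with MeOH eluate (adjusted p = 1.94e-05), which is a 1.90-fold and a 3.21-fold lower signal. Both calls held with each of the 16 arrays left out in turn. The probe was spotted 5 times on each array and its spots were averaged.

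Set directly against each other, the treatments differed for some of these genes. At 6 h MeOH eluate gave lower Nqo1 than WS1442 (-0.51, 95% interval -0.68 to -0.34, adjusted p = 0.00147) and lower Gclm (-0.24, interval -0.37 to -0.11, adjusted p = 0.0223), and higher Hmox1 (0.21, interval 0.08 to 0.33, adjusted p = 0.0385), that is 3 of 10 genes beside 12.1% of all genes. At 24 h it gave lower Gclc (-0.19, adjusted p = 0.0303), Gclm (-0.24, adjusted p = 0.0165), G6pdx (-0.35, adjusted p = 0.000563) and Osgin1 (-0.76, adjusted p = 0.00773), that is 4 of 10 beside 14.6%. At 6 h Nqo1, Gclc, Gclm and Nfe2l2 were lower on all 3 eluate arrays than on any WS1442 array, and Hmox1 and Srxn1 were higher. At 24 h Gclc, Gclm, G6pdx and Osgin1 were lower on all 3 eluate arrays than on any WS1442 array. The share of all genes without overlap was not computed. For Srxn1 no difference was called at either time, with intervals of 0.01 to 0.26 at 6 h and -0.22 to 0.04 at 24 h, and for Gsr the intervals were -0.07 to 0.10 and -0.03 to 0.14. The Hmox1 difference lost its call when any 1 of 6 arrays was left out, which were WS1442 6 h replicates 1 and 2, the 3 MeOH eluate 6 h arrays and MeOH eluate 24 h replicate 1 (adjusted p between 0.0515 and 0.105), and with scaling to the 75th percentile (0.10, adjusted p = 0.402), no filter on dim probes (0.0573), limma without a trend (0.074) or the fit within the time point (0.0845). The Gclm difference at 6 h lost it without WS1442 replicate 2 or 3 or MeOH eluate replicate 1 or 2 (0.0589 to 0.0874), leaving 1 called gene in 3 of these cases. The Gclm difference at 24 h lost it without WS1442 replicate 3 (0.0601) or MeOH eluate replicate 3 (0.0838), and the Gclc difference without WS1442 replicate 1 or 3 or any MeOH eluate replicate (0.0704 to 0.0877), with the mean of both probes (-0.11, adjusted p = 0.539) and with the fit within the time point (0.0578). The differences of Nqo1 at 6 h and of G6pdx and Osgin1 at 24 h held with each array left out.

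**Figure D3:**
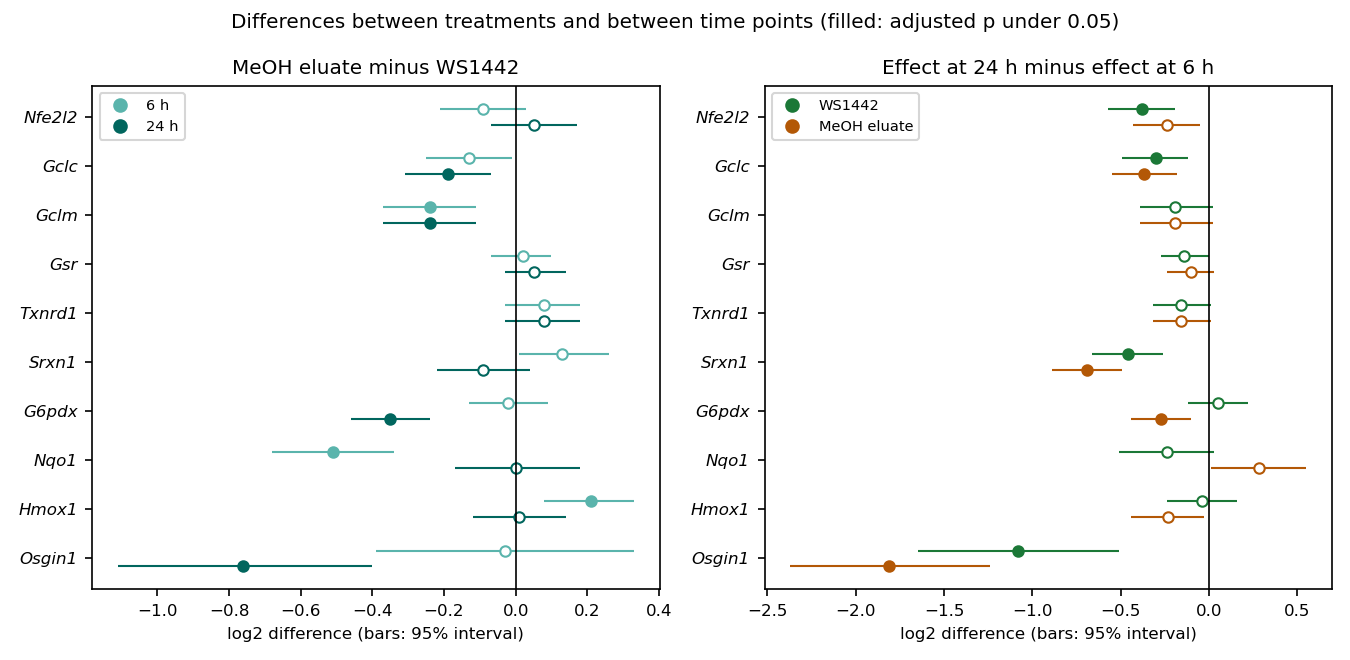
Left, MeOH eluate minus WS1442 for each gene at 6 h (light) and 24 h (dark); right, the change against DMSO at 24 h minus that at 6 h, for WS1442 (green) and MeOH eluate (orange). Bars are 95% intervals from limma on the log2 scale and filled points have an adjusted p under 0.05; the interval of Nqo1 at 6 h, -0.68 to -0.34, and that of G6pdx at 24 h, -0.46 to -0.24, lie wholly below 0.

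The effects at the 2 time points were also compared with each other, as the change against DMSO at 24 h minus that at 6 h. With WS1442 this difference was called for 4 genes, Nfe2l2 (-0.38 ± 0.09, adjusted p = 0.0144), Gclc (-0.30 ± 0.09, adjusted p = 0.0345), Srxn1 (-0.46 ± 0.09, adjusted p = 0.00709) and Osgin1 (-1.08 ± 0.26, adjusted p = 0.017), and 12.7% of all genes were called. With MeOH eluate it was called for Gclc (-0.37 ± 0.09, adjusted p = 0.0171), Srxn1 (-0.69 ± 0.09, adjusted p = 0.00034), G6pdx (-0.27 ± 0.08, adjusted p = 0.0496) and Osgin1 (-1.81 ± 0.26, adjusted p = 0.000592), and 7.76% of all genes were called. All 8 differences were negative, so the change against DMSO was smaller, or further below 0, at 24 h. The signal of Osgin1 was low at 6 h in every group, and the part of this in its time differences was not tested. For G6pdx with WS1442 the interval was -0.12 to 0.22. Srxn1 with both treatments and Osgin1 with MeOH eluate kept the call with each array left out, and without DMSO 6 h replicate 1 or DMSO 24 h replicate 1 only Srxn1 was left called with WS1442. G6pdx with MeOH eluate lay at the threshold and lost its call in 13 of the 16 omissions (adjusted p between 0.0512 and 0.219). Gclc lost its call in 7 omissions with WS1442 (0.0517 to 0.178) and in 2 with MeOH eluate, those of DMSO 6 h replicate 1 (0.0886) and DMSO 24 h replicate 1 (0.0997). With the mean of both probes Gclc was not called with WS1442 (-0.31, adjusted p = 0.207) or MeOH eluate (-0.35, adjusted p = 0.195), nor Nfe2l2 with WS1442 (-0.42, adjusted p = 0.191).

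Other genes of the pathway were taken from lists drawn up for their known roles. Among 14 regulators of NRF2 and partners of its DNA binding, WS1442 raised 1 at 6 h and 6 at 24 h and lowered 1 at 24 h, and MeOH eluate raised 3 at 6 h and 2 at 24 h and lowered 1 at 24 h. In the order WS1442 6 h, MeOH eluate 6 h, WS1442 24 h and MeOH eluate 24 h, which is kept for all lists, 7.14%, 21.4%, 50.0% and 21.4% of them were called, beside 5.60%, 17.1%, 24.7% and 18.2% of all genes. Sqstm1, which encodes the autophagy receptor p62 that can sequester KEAP1 and is itself a target of NRF2, was raised in all 4 comparisons, by 0.35 ± 0.07 and 0.80 ± 0.07 with WS1442 at 6 h and 24 h (adjusted p = 0.0134 and 8.94e-06) and by 0.71 ± 0.07 and 0.43 ± 0.07 with MeOH eluate (adjusted p = 1.22e-05 and 0.000624). Bach1, a repressor that competes with NRF2 for its elements, rose with MeOH eluate at 6 h (0.42 ± 0.09, adjusted p = 0.00418) and with WS1442 at 24 h (0.32 ± 0.09, adjusted p = 0.0132). Nfe2l1, a relative of NRF2, rose with MeOH eluate at 6 h (0.30 ± 0.05, adjusted p = 0.000457) and fell at 24 h with WS1442 (-0.30 ± 0.05, adjusted p = 0.000303) and with MeOH eluate (-0.14 ± 0.05, adjusted p = 0.0411). Keap1 itself was not called, with values between -0.08 and 0.38 and an SE of 0.19. Nfe2l3 was called with WS1442 at 24 h but was not well above background on either DMSO array of that time, so no fold is given.

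Of 40 further targets of NRF2 in 5 lists, 35 could be tested. WS1442 raised 3 and lowered none at 6 h, a share of 8.57% beside the 5.60% of all genes, and MeOH eluate raised 7 and lowered 4 (31.4% beside 17.1%). At 24 h WS1442 raised 9 and lowered 5 (40.0% beside 24.7%), and MeOH eluate raised 5 and lowered 3 (22.9% beside 18.2%). Their median log2 fold changes were 0.12, 0.09, 0.06 and 0.01 in that order. The log2 fold change was above 0 for 28, 23, 23 and 19 of the 35 genes.

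In the glutathione list, 15 genes could be tested, and 1, 2, 3 and 1 of them rose and 0, 3, 0 and 2 fell. These are shares of 6.67%, 33.3%, 20.0% and 20.0%, beside the 5.60%, 17.1%, 24.7% and 18.2% of all genes. Mgst1, a membrane-bound glutathione transferase, was higher at 24 h with WS1442 (0.92 ± 0.15, adjusted p = 0.000596) and with MeOH eluate (1.14 ± 0.15, adjusted p = 9.19e-05). Abcc1, an exporter of glutathione conjugates, fell with MeOH eluate at 6 h (-0.31 ± 0.06, adjusted p = 0.00252) and at 24 h (-0.21 ± 0.06, adjusted p = 0.0271). In the thioredoxin list of 3, Txn1 and Prdx1 rose with MeOH eluate at 6 h, by 0.15 ± 0.04 (adjusted p = 0.0227) and 0.18 ± 0.06 (adjusted p = 0.0412), and nothing else was called.

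In the list of NADPH supply, with 5 genes tested, 1, 1, 2 and 2 rose and 1 fell, with WS1442 at 24 h. On these 5 genes 20.0%, 20.0%, 60.0% and 40.0% were called, beside 5.60%, 17.1%, 24.7% and 18.2% of all genes. Idh1, a cytosolic isocitrate dehydrogenase that makes NADPH, rose in all 4 comparisons, by 0.31 ± 0.08 (adjusted p = 0.0304) and 0.58 ± 0.08 (adjusted p = 0.000143) at 6 h with WS1442 and MeOH eluate and by 0.55 ± 0.08 (adjusted p = 0.000167) and 0.35 ± 0.08 (adjusted p = 0.00479) at 24 h. Pgd, the pentose phosphate enzyme after G6pdx, rose at 24 h by 0.52 ± 0.05 with WS1442 (adjusted p = 8.94e-06) and by 0.18 ± 0.05 with MeOH eluate (adjusted p = 0.0122). Tkt, a transketolase of the same pathway, fell with WS1442 at 24 h (-0.39 ± 0.12, adjusted p = 0.026).

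In the list of quinone and carbonyl detoxification, with 6 tested, 1, 1, 2 and 1 rose and 0, 1, 2 and 0 fell. Called were 16.7%, 33.3%, 66.7% and 16.7% of them, beside 5.60%, 17.1%, 24.7% and 18.2% of all genes. Cbr3, a carbonyl reductase, rose at 6 h with WS1442 (0.43 ± 0.08, adjusted p = 0.0071) and MeOH eluate (0.26 ± 0.08, adjusted p = 0.0316). Ephx1, an epoxide hydrolase, was lower with MeOH eluate at 6 h (-0.52 ± 0.10, adjusted p = 0.00199) and higher at 24 h with WS1442 (0.55 ± 0.10, adjusted p = 0.000902) and MeOH eluate (0.70 ± 0.10, adjusted p = 0.000121). In the heme and iron list, with 6 tested, 0, 1, 2 and 1 rose and 0, 0, 2 and 1 fell. Here 0%, 16.7%, 66.7% and 33.3% were called, beside the same shares of all genes. Ftl1, a ferritin chain, rose with MeOH eluate at 6 h (0.36 ± 0.06, adjusted p = 0.00103) and 24 h (0.54 ± 0.06, adjusted p = 1.89e-05) and with WS1442 at 24 h (0.26 ± 0.06, adjusted p = 0.00547), and Blvrb, a biliverdin reductase, fell at 24 h with WS1442 (-0.29 ± 0.10, adjusted p = 0.0415) and MeOH eluate (-0.40 ± 0.10, adjusted p = 0.0101).

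**Figure D4:**
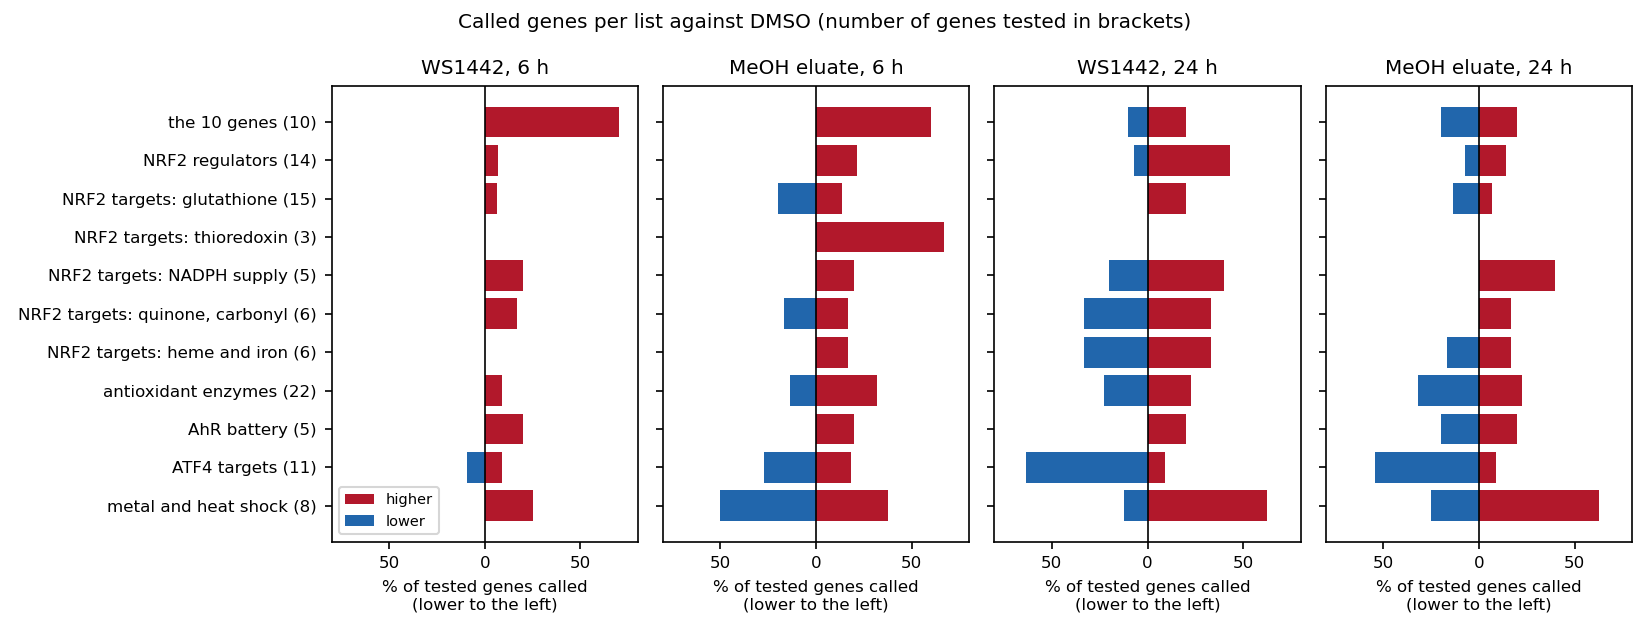
Share of the tested genes of each list that were called higher (red, to the right) or lower (blue, to the left) against DMSO of the same time point, in percent, with the number of genes tested in brackets. At 6 h WS1442 raised 7 of the 10 genes at the top and lowered none, beside 4.15% of all genes called higher. Of the 11 ATF4 targets at 24 h, WS1442 lowered 7 and raised 1, beside 11.9% of all genes called lower and 12.9% higher. MeOH eluate at 24 h lowered 6 and raised 1 of these targets, beside 8.59% of all genes called lower and 9.63% higher.

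For comparison, 22 antioxidant enzymes outside the NRF2 lists were tested, of which 2, 7, 5 and 5 rose and 0, 3, 5 and 7 fell. These are shares of 9.09%, 45.5%, 45.5% and 54.5%, beside 5.60%, 17.1%, 24.7% and 18.2% of all genes. Sesn3, a sestrin, rose most with MeOH eluate at 24 h (0.91 ± 0.09, adjusted p = 7.24e-06), and Txnrd3, a relative of Txnrd1, fell with MeOH eluate at 6 h (-0.44 ± 0.09, adjusted p = 0.00378) and 24 h (-0.65 ± 0.09, adjusted p = 0.000127). Of 5 tested genes of the aryl hydrocarbon receptor pathway, 1 rose in each comparison and 1 fell with MeOH eluate at 24 h (20.0%, 20.0%, 20.0% and 40.0% called). This list holds Ahr, the receptor gene itself, while Cyp1a1 and Cyp1a2 were not well above background on all arrays of any group. Ahr rose at 24 h with WS1442 (1.23 ± 0.21, adjusted p = 0.000686) and MeOH eluate (1.13 ± 0.21, adjusted p = 0.00127), and Tiparp rose at 6 h with WS1442 (0.29 ± 0.08, adjusted p = 0.0371) and MeOH eluate (0.28 ± 0.08, adjusted p = 0.0215) and fell at 24 h with MeOH eluate (-0.30 ± 0.08, adjusted p = 0.0113). Of 8 metal and heat shock genes, 2, 3, 5 and 5 rose and 0, 4, 1 and 2 fell (25.0%, 87.5%, 75.0% and 87.5% called), with Mt1 lower with MeOH eluate at 6 h (-0.32 ± 0.08, adjusted p = 0.00951) and higher at 24 h (0.75 ± 0.08, adjusted p = 8.28e-06). Of 11 targets of ATF4, a factor of the amino acid and unfolded protein stress response, 1, 2, 1 and 1 rose and 1, 3, 7 and 6 fell (18.2%, 45.5%, 72.7% and 63.6% called). Chac1, which degrades glutathione, changed by -0.49 ± 0.12 (adjusted p = 0.0317) and -1.47 ± 0.12 (adjusted p = 2.27e-06) at 6 h with WS1442 and MeOH eluate and by -0.59 ± 0.12 (adjusted p = 0.00307) and -1.93 ± 0.12 (adjusted p = 1.42e-07) at 24 h. At 24 h Trib3, a pseudokinase, changed by -1.11 ± 0.14 (adjusted p = 8.6e-05) and -1.97 ± 0.14 (adjusted p = 3.5e-07), and Psat1, of serine synthesis, by -0.51 ± 0.05 (adjusted p = 1.5e-05) and -0.92 ± 0.05 (adjusted p = 3.24e-08).

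Across the 16 arrays, after the mean of each time point was subtracted, the genes most like Osgin1 were Psat1 (Pearson r = 0.974), Glis1 (0.973) and Crym (0.967), and those most like Srxn1 were Nit2 (0.966), Sqle (0.965) and Tspan31 (0.963). The closest of the other 9 genes was Gclc for Osgin1 (0.703) and Gsr for Srxn1 (0.901). The 3 genes most like G6pdx were Cnih1 (0.963), Pkm (0.963) and Nup205 (0.959), and those most like Nqo1 were Cenpq (0.915), Slc27a1 (0.898) and Smpd4 (0.895). For Gsr they were Myrf (0.957), Htra1 (0.951) and Kctd6 (0.946), and for Txnrd1 they were Rbm38 (0.933), Bcl9l (0.931) and Crybg3 (0.921). Gclc was closest to Dnm1 (0.930), Polr3g (0.918) and Adcy3 (0.902), and Gclm to Iqcg (0.906), Plxna2 (0.903) and Tecpr2 (0.900). Hmox1 was closest to Tsc22d1 (0.909), Eno2 (0.907) and Pdgfa (0.904), and Nfe2l2 to Arhgef17 (0.909), Sirpa (0.906) and Galnt10 (0.890). These coefficients describe the same arrays on which the genes were measured, which share controls and slides, and carry no test.

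Some markers of cell types moved with the treatments too. The summed signal of 5 mesoderm markers at 6 h lay between 3294 and 3406 with DMSO, between 2134 and 2366 with WS1442 and between 1439 and 1508 with MeOH eluate, in arbitrary units, and at 24 h between 2309 and 2310, 1790 and 1872, and 1378 and 1422. Of the 5, 2 were called lower with WS1442 and 3 with MeOH eluate at each time, and none higher. These are 40.0% and 60.0%, beside 5.60% and 17.1% of all genes at 6 h and 24.7% and 18.2% at 24 h. At 6 h the log2 fold change was above 0 for 1 of the 5 with WS1442 and 2 with MeOH eluate. Mixl1, a marker of early mesendoderm, changed most at 6 h, by -0.99 ± 0.07 and -2.39 ± 0.07 with WS1442 and MeOH eluate (adjusted p = 3.01e-06 and 2.6e-11). The sum of 4 endoderm markers at 6 h ran from 1941 to 1979, 1464 to 1618 and 1082 to 1266 in the same order, and at 24 h from 2467 to 2619, 2224 to 2530 and 1383 to 1685. The 5 pluripotency markers summed to between 13579 and 14488, 13673 and 14318, and 13319 and 14093 at 6 h, and the groups overlapped. At 24 h the sums ran from 7762 to 8006, 7651 to 8321 and 7547 to 9029 and overlapped again. With MeOH eluate at 6 h, however, none of the 5 had a log2 fold change above 0 (median -0.40, lowest -0.94). Of these, 1 was called lower (20.0% beside 17.1% of all genes), as was 1 with WS1442 at 24 h (20.0% beside 24.7%). The sum of 6 cardiac markers at 6 h was lower on every treated array, from 21257 to 23574 with DMSO, 17508 to 20203 with WS1442 and 17798 to 19685 with MeOH eluate, and at 24 h the groups overlapped. The sum adds signals on the linear scale, so bright markers weigh most, and none of the 6 was called lower at 6 h. With MeOH eluate at 6 h 2 of them rose (33.3% beside 17.1% of all genes). At 24 h 1 fell with WS1442 (16.7% beside 24.7%) and 2 with MeOH eluate (33.3% beside 18.2%). Of 3 neuroectoderm markers 2 rose with WS1442 (66.7% beside 24.7% of all genes) and 1 with MeOH eluate (33.3% beside 18.2%) at 24 h. Their sum at 24 h ran from 3458 to 3530 with DMSO, 3183 to 3377 with WS1442 and 3553 to 4173 with MeOH eluate. With WS1442 the sum was thus lower on every array, although 2 of the 3 markers were called higher. Of 5 blood markers 1 rose with MeOH eluate at 24 h, a share of 20.0% that is near the 18.2% of all genes. Of 3 macrophage markers, which stand for cells not meant to be present, Cd68 was raised in all 4 comparisons, Csf1r and Ptprc were called in none, and Adgre1 was not well above background on all arrays of any group. The Cy3 dye per microgram of labelled RNA ran from 23.5 to 26.4 pmol with DMSO, 26.5 to 27.6 with WS1442 and 24.7 to 29.5 with MeOH eluate at 6 h, and from 25.8 to 26.1, 31.8 to 32.8 and 27.1 to 30.3 at 24 h. The part of the cell types and of the labelling in the changes of the 10 genes was not tested.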

How the data were processed

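RNA of 16 cultures was hybridised to 1-colour Agilent mouse arrays and read with Agilent Feature Extraction 11.5.1.1, per the file headers. The authors deposited, for each array, spot intensities that the scanner software had background-corrected, and 1 table of quantile-normalized intensities on a linear scale. All 16 columns of that table correlated best with their own array, the lowest at r = 0.9978. From the deposited intensities, non-uniform spots were left out, spots of a probe were averaged, and log2 values were quantile-normalized. A probe was kept where all arrays of some group had it well above background (36729 of 60273), and the brightest kept probe stood for a gene. Group means were fitted over all 16 arrays with limma 3.58.1 in R 4.3.3 (empirical Bayes with trend), with Benjamini-Hochberg adjustment over the 29241 genes, for which 91 values were missing. The fit was tested on simulated data. Probes without a symbol in the files were named by RefSeq accession.

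The 10 genes and the lists were chosen with earlier results of these data known. Named are the 10 genes, some genes of the lists called against DMSO, and the 3 genes most like each of the 10. In a list, the called genes could be named, or the 8 with the largest change where it had more. Not all of these are named in the text, and some left unnamed changed more than those named from the same list. Keap1, Cyp1a1, Cyp1a2, Csf1r, Ptprc, Adgre1 and Myh6 fall outside this rule and were named after their values were seen. Alternatives covered scaling, background, filter, probe choice, the authors' table, variance prior, time point, array weights, a replicate block, Student's t-test, the methods' 2-fold threshold, and each array left out. The number of arrays limits the precision.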

Additional observations from a re-analysis of the deposited data

Results flagged for a closer look

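For 8 values the effect of a treatment differed between the time points by limma's test of the difference itself (effect at 24 h minus effect at 6 h, log2 scale). With WS1442 these were Nfe2l2 (-0.38, adjusted p = 0.0144), Gclc (-0.30, adjusted p = 0.0345), Srxn1 (-0.46, adjusted p = 0.00709) and Osgin1 (-1.08, adjusted p = 0.017). With MeOH eluate they were Gclc (-0.37, adjusted p = 0.0171), Srxn1 (-0.69, adjusted p = 0.00034), G6pdx (-0.27, adjusted p = 0.0496) and Osgin1 (-1.81, adjusted p = 0.000592). Each time point lay on its own slide, and each difference sets effects measured within 1 slide against each other, so slide and time cannot be told apart here. The signal of Osgin1 was low at 6 h, between 3.67 and 4.14.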

How the results depend on the processing

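Under 13 other settings, 1000 values of the 10 genes were recomputed: 914 kept their direction and their side of the threshold, 69 lost the call, 2 gained one and 15 changed sign. With each of the 16 arrays left out, 1187 of 1280 values kept both, 70 lost the call, 2 gained one and 21 changed sign. Of 35 called values, 1 changed sign under a setting: Nfe2l2 with MeOH eluate at 6 h read -0.14 with the mean of its probes. The dimmer of these probes was well above background on 1 of 3 arrays of that group. Causes were not tested.

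With an array left out, the number of the 10 genes called ran from 1 to 7 for WS1442 at 6 h, 3 to 6 for MeOH eluate at 6 h, 3 to 4 for WS1442 at 24 h, 2 to 4 for MeOH eluate at 24 h, 1 to 3 and 2 to 4 for eluate against WS1442 at 6 h and 24 h, and 1 to 4 and 2 to 4 for the difference of the effects between time points with WS1442 and MeOH eluate. With scaling to the 75th percentile MeOH eluate at 6 h called 3, beside 14.3% of all genes. With the fit within the time point WS1442 at 6 h called 4, beside 1.64%. With the mean of all probes the time differences called 2 with WS1442 and 2 with MeOH eluate, beside 10.2% and 6.84%.

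The methods name Student's t-test for pairwise comparisons, without tying it to the arrays. With Benjamini-Hochberg adjustment it called 0 of the 10 genes at 6 h with either treatment. At 24 h it called 1 with WS1442 and 0 with MeOH eluate, and 0 for eluate against WS1442 at both times. This test called few genes at all. The shares of all genes with WS1442 and MeOH eluate were 0.00342% and 0.0274% at 6 h and 0.352% and 1.09% at 24 h. Between the treatments they were 0.239% at 6 h and 0.705% at 24 h. At an unadjusted p under 0.05 the t-test gave 8, 6, 4 and 4 against DMSO and 4 and 4 between the treatments. The share of all genes at that unadjusted p was not computed. At more than 2-fold with an unadjusted p under 0.05 in limma, 0, 0, 0 and 1 of the 10 passed against DMSO, 0 and 0 between the treatments, and 1 and 1 for the time differences.

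Same-numbered replicates correlated between -0.235 and 0.305 in their deviations from the group means, so the numbers were not taken as pairs. With a replicate block, 3 genes were called for WS1442 at 6 h, 1 for the time difference with WS1442 and 2 for that with MeOH eluate. The shares of all genes were then 1.90%, 6.67% and 4.86%.

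Values that changed sign were close to 0 except those of Nfe2l2. With scaling to the 75th percentile, Txnrd1 read -0.05 with WS1442 at 24 h, Txnrd1, Gsr and Osgin1 read -0.04, -0.10 and 0.02 for eluate against WS1442 at 6 h, and G6pdx read -0.09 for the WS1442 time difference. With normexp background, Nqo1 read 0.00 with MeOH eluate at 24 h and -0.02 for eluate against WS1442 at 24 h, and Gsr read 0.00 for eluate against WS1442 at 6 h. With the mean of all probes, Nfe2l2 read -0.25 with MeOH eluate at 24 h and -0.02 for eluate against WS1442 at 24 h. With the authors' table, Osgin1 read -0.01 with MeOH eluate at 6 h. With array weights, Osgin1 read 0.02 for eluate against WS1442 at 6 h and Hmox1 0.00 at 24 h. With the replicate block, Nfe2l2 read 0.02 with WS1442 at 24 h.

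With an array left out, uncalled values that crossed 0 ran from -0.04 to 0.35 (Osgin1, WS1442 6 h), -0.08 to 0.32 (Osgin1, MeOH eluate 6 h), -0.15 to 0.01 (Gclc, WS1442 24 h), -0.04 to 0.07 (Txnrd1, WS1442 24 h), -0.10 to 0.09 (Nfe2l2, WS1442 24 h), -0.14 to 0.03 (Gclm, MeOH eluate 24 h) and -0.05 to 0.14 (Nfe2l2, MeOH eluate 24 h). For eluate against WS1442 they ran from -0.01 to 0.04 (Gsr, 6 h), -0.12 to 0.03 (Osgin1, 6 h), -0.04 to 0.06 (Nqo1, 24 h) and -0.03 to 0.05 (Hmox1, 24 h), and for the WS1442 time difference from -0.09 to 0.02 (Hmox1).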
